A study of Ovis aries with 16 samples.

Results

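*CD163*, *CD34* and *TGFBI* were taken as markers of liver cells other than hepatocytes, and they were followed here through 16 fetal sheep livers as 3 of the 26478 genes in a count table. Which cells expressed them was not measured in these bulk samples. The 3 genes were found through the identifier and symbol columns of the study's own table of genes that differed between hypoxic and normoxic pregnancy. That table was made from these same livers, so the genes were chosen by their measured difference between hypoxic and normoxic livers. That difference is given below as a description, and nothing is read from the calls that the fit across all genes gave for these 3. *CD163* (ENSOARG00020012750), *CD34* (ENSOARG00020021248) and *TGFBI* (ENSOARG00020010032) all had at least 250 reads in at least 8 livers, the minimum for a gene to be tested, which 8580 genes reached.

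The study asked how hypoxic pregnancy alters the fetal liver. Welsh Mountain ewes breathed either normal air (CON) or air with reduced oxygen (HOX) for 30 days of late pregnancy, and liver was taken from fetuses at 0.9 of gestation. The CON group held 9 livers (5 male, 4 female) and the HOX group 7 (3 male, 4 female), 1 polyA-selected bulk RNA library each. The series description places collection near day 130 and the study's methods somewhat later.

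The CD163 protein is a scavenger receptor of macrophages, including the resident macrophages of the liver, and takes up haemoglobin bound to haptoglobin. CD34 is a sialomucin on the surface of blood progenitors and of vascular endothelium, and the fetal liver is a site of blood formation. TGFBI is a secreted matrix protein induced by transforming growth factor-β, which binds collagens and integrins.

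Between 24065959 and 29353692 reads were counted on genes in each CON liver (median 27762095), and between 23955166 and 33952503 in each HOX liver (median 25055592). HOX animal 1, a female, had the highest total, and it stood apart from the rest. On the first principal component of log2 expression, which held 25.6% of the variance, it scored 64.4 while the other livers scored from −15.6 to 6.23. Results of the 3 genes that could rest on this liver are therefore given with and without it. Expression is stated in CPM, the read counts normalized for library size with TMM factors, as mean ± SD, and log2 fold changes carry their standard error (SE).

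Expression of *CD163* in CON livers ranged from 254 CPM in animal 3 to 419 in animal 4, with a median of 313. In HOX livers it ranged from 61.9 in animal 1 to 326 in animal 4, with a median of 228. The groups overlapped through HOX animals 4 and 6, and the other 5 HOX livers were lower than every CON liver. The means were 323 ± 58.1 CPM in CON (*n* = 9) and 213 ± 83.3 in HOX (*n* = 7), 1.51-fold lower in HOX. The log2 fold change was −0.60 (SE 0.231). Leaving out HOX animal 1, the HOX mean was 239 ± 54.6 (*n* = 6), and the log2 fold change was −0.44 (SE 0.142). In these bulk samples, fewer cells of a type and less RNA per cell cannot be told apart.

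*TGFBI* ranged from 91.6 CPM in CON animal 6 to 145 in CON animal 3, with a median of 119. The HOX livers ranged from 26.0 in animal 1 to 126 in animal 4, with a median of 90.3. As for *CD163*, animal 1 was the lowest and animal 4 the highest of the HOX livers, and 6 of 7 were below the CON mean. Of these, 4 were lower than every CON liver. The means of 120.4 ± 17.0 CPM (CON) and 85.3 ± 31.3 CPM (HOX) gave a log2 fold change of −0.50 (SE 0.215). Without HOX animal 1 the HOX mean was 95.2 ± 18.9 and the log2 fold change −0.34 (SE 0.122).

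*CD34* went the other way. Its CON livers ranged from 6.35 CPM in animal 6 to 29.7 in animal 5 (median 11.0), and its HOX livers from 15.6 in animal 5 to 54.0 in animal 7 (median 24.4). All 7 HOX livers were above the CON mean, but the groups overlapped, since CON animal 5 was higher than 5 of the HOX livers and only HOX animals 4 and 7 were higher than every CON liver. The means were 13.7 ± 6.97 CPM in CON and 28.3 ± 12.8 in HOX, 2.06-fold higher in HOX. The log2 fold change was 1.04 (SE 0.292), and it was 1.11 (SE 0.301) without HOX animal 1, which had 21.3 CPM. Without HOX animal 7 it was 0.81, and without CON animal 5 it was 1.28.

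**Figure D1:**
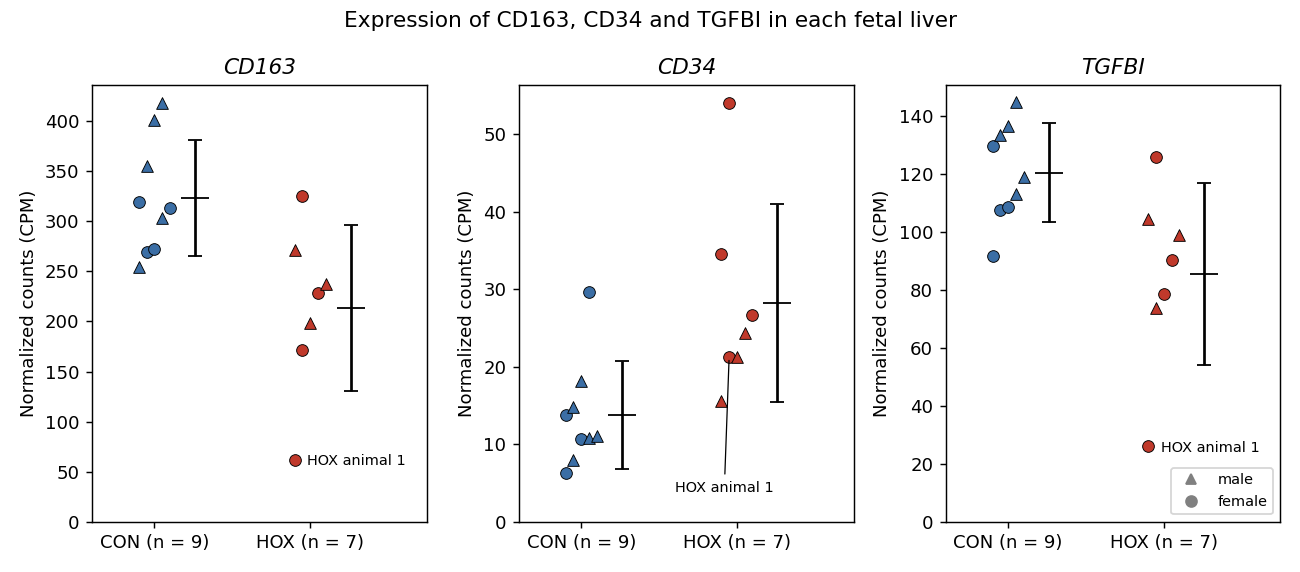
Normalized counts (CPM, linear axis from 0) of CD163, CD34 and TGFBI in each of 9 CON and 7 HOX fetal livers, with triangles for males, circles for females and bars for the mean ± SD. HOX animal 1 is the lowest point for CD163 (61.9) and TGFBI (26.0) but lies among the other HOX livers for CD34 (21.3).

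As the contrast that chose the genes, HOX against CON was fitted across all genes for the background, with a gene called at an adjusted *P* under 0.15, the study's threshold. edgeR's quasi-likelihood test called 0 of the 3 genes, against 0.0583% of all genes (5 of 8580, with 1022 at an unadjusted *P* under 0.05). DESeq2 called 1 of the 3, *CD34*, against 2.76% of all genes, and limma-voom with sample quality weights also called *CD34* alone, against 1.7%. In the 15 livers without HOX animal 1, edgeR called 0 against 0.141%, while DESeq2 called *CD163* and *CD34* against 6.16%. Nothing is read from these counts, because the same contrast chose the genes.

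HOX animal 1 differed from the other 6 HOX livers in 2 of the 3 genes. Its *CD163* expression was 3.85-fold below their mean and its *TGFBI* expression 3.66-fold below. On the log2 scale the gaps were −1.91 and −1.84, and 1.43% and 1.60% of the genes tested had a larger gap in the same direction. For *CD34* the gap was −0.35, and 32.1% of genes lay further down. The ratio of *CD163* to *TGFBI* reads in this liver was 2.38, inside the range of the CON livers (1.76 to 3.56), so both genes were low there by similar factors. The mean log2 CPM of 20 hepatocyte genes was also lowest in it among HOX livers, at 7.31 against 7.73 to 8.16, though not every gene of that list was low there (*FGG* was 7111 CPM in it and 6576 ± 707 in the other 6). The part of this difference in its low *CD163* and *TGFBI* values was not tested.

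Within the CON group *CD34* was the most variable of the 3 genes. Its SD on the log2 scale was 0.651, higher than that of 95.3% of the genes tested, while *CD163* (0.253) and *TGFBI* (0.209) were close to the median gene (0.238). Counting error was small beside this spread, at most 8.19% of the value for *CD34* (149 reads in CON animal 6) against a coefficient of variation of 50.9% in CON. In HOX livers the SD was 0.782 for *CD163* and 0.743 for *TGFBI*, above 94.9% and 94.1% of genes. With animal 1 left out the values were 0.326 and 0.282, above 79.1% and 70.8% of genes, so much of the wider HOX spread in these genes came from 1 liver. *CD34* kept an SD of 0.613 in HOX livers without animal 1.

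Fetal sex was not used to choose the genes, so it could be tested. *CD163* averaged 347 ± 68.3 CPM in CON males (*n* = 5) and 294 ± 26.5 in CON females (*n* = 4), and 235 ± 36.5 and 197 ± 110.2 in HOX males (*n* = 3) and females (*n* = 4). *TGFBI* averaged 129 ± 13.1 and 109 ± 15.6 in CON males and females, and 92.2 ± 16.5 and 80.1 ± 41.2 in HOX. *CD34* averaged 12.6 ± 3.97 and 15.1 ± 10.2 in CON, and 20.4 ± 4.45 and 34.2 ± 14.3 in HOX. Females had the higher mean of *CD34* in both groups, but in CON that order rested on animal 5, since the other 3 CON females averaged 10.3 ± 3.73, below the CON males. Males had the higher mean of *CD163* and *TGFBI* in CON, but in HOX that order rested on animal 1, since the other 3 HOX females averaged 242 ± 77.9 CPM of *CD163* and 98.2 ± 24.5 of *TGFBI*, above the HOX males. edgeR, with treatment in the model, called 0 of the 3 genes for sex. The background was 0.0233% of all genes (2 of 8580, with 267 at an unadjusted *P* under 0.05, while DESeq2 called 0 of the 3 against 0.0816%). The log2 difference of males from females was 0.25 for *CD163* (95% interval −0.23 to 0.73), 0.23 for *TGFBI* (−0.22 to 0.67) and −0.47 for *CD34* (−1.08 to 0.13), each with an adjusted *P* of 0.974. The differences without HOX animal 1, which is female, were 0.13, 0.12 and −0.52.

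The HOX difference was then compared between the sexes as the interaction of sex and treatment. edgeR called 0 of the 3 genes, against 0% of all genes (281 of 8580 at an unadjusted *P* under 0.05), and DESeq2 also called 0 of the 3, against 0.0699%. The estimates, as the difference in males less that in females, were 0.02 for *CD163* (95% interval −0.98 to 1.02), −0.04 for *TGFBI* (−0.98 to 0.90) and −0.47 for *CD34* (−1.69 to 0.74), all with an adjusted *P* of 0.999. The intervals are wide and include differences of either sign for each gene. The estimates without HOX animal 1 were −0.27, −0.32 and −0.64.

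Whether the 3 genes moved together between livers was asked within each group, where the difference between the group means does not enter. The genes were still chosen on these same livers, HOX animal 1 among them. The erythroid and hepatocyte genes used below were found through the same table. The part of this choice in the relations was not tested. None of the 6 relations between pairs passed an adjusted *P* of 0.05, and 1 had an unadjusted *P* under 0.05. In CON livers *CD163* and *TGFBI* had *r* = −0.0380 (exact permutation *P* = 0.922, adjusted 0.922) and rho = −0.10 (*P* = 0.810, adjusted 0.906). In HOX livers they had *r* = 0.91 (exact permutation *P* = 0.0383, adjusted 0.230) and rho = 0.54 (*P* = 0.236, adjusted 0.906). That relation rested on HOX animal 1, since *r* was 0.29 and rho 0.26 in the other 6 livers (exact permutation *P* = 0.568 and 0.658). *CD34* had *r* = 0.0891 in CON and 0.28 in HOX with *CD163*, and 0.15 and 0.14 with *TGFBI*, with exact permutation *P* from 0.498 to 0.821 and adjusted *P* = 0.922 for each. The corresponding rho values were 0.17 and 0.29 with *CD163* and 0.22 and 0.0714 with *TGFBI*, with adjusted *P* = 0.906 for each. In HOX without animal 1, *r* was 0.15 for *CD34* with *CD163* and −0.26 with *TGFBI* (exact permutation *P* = 0.799 and 0.656), and rho was 0.0857 and −0.20. Centred within sex, *r* in CON livers was −0.47 for *CD163* with *TGFBI*, 0.14 for *CD163* with *CD34* and 0.25 for *CD34* with *TGFBI*. In HOX livers these were 0.90, 0.66 and 0.42. Their exact permutation *P* ranged from 0.0903 to 0.651 and the adjusted *P* from 0.528 to 0.651.

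*CD34* tended to be higher in livers with higher expression of erythroid genes. The erythroid list had 5 genes of 26 that could be found and tested, namely *ANK1* (a membrane skeleton protein), *CPOX* (a haem synthesis enzyme), *EPOR* (the erythropoietin receptor), *TFRC* (the transferrin receptor) and *CDAN1*. Their mean log2 CPM was 5.45 ± 0.478 in CON and 6.06 ± 0.589 in HOX, lowest in CON animal 6 (4.83) and highest in HOX animal 4 (6.84). Their summed level was 324 ± 118 CPM in CON and 509.8 ± 199.5 in HOX, with *ANK1* the most abundant (143 ± 57.6 and 224 ± 95.5), and all 5 had a higher mean in HOX, a direction from which nothing is read, since these genes too were found only through the study's table for this contrast. CON animal 6 was also the lowest liver for *CD34*, and CON animal 5 was the highest CON liver for both *CD34* and the erythroid mean (6.29). In CON livers *r* was 0.80 (exact permutation *P* = 0.00873, adjusted over 18 relations 0.0785) and rho 0.73 (*P* = 0.0311, adjusted 0.123). In HOX livers *r* was 0.83 (exact permutation *P* = 0.0196, adjusted 0.0964) and rho 0.89 (*P* = 0.0123, adjusted 0.123). Neither relation passed an adjusted *P* of 0.05, and in CON *r* was 0.42 without animals 5 and 6 (exact permutation *P* = 0.357), so the CON relation rested on those livers. In HOX without animal 1, *r* was 0.90 and rho 0.89. Centred within sex *r* was 0.80 in CON (exact permutation *P* = 0.0365, adjusted 0.164) and 0.86 in HOX (exact permutation *P* = 0.0625, adjusted 0.225).

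After the data had been seen, all relations were also computed with values centred within each group and pooled, 12 in all. A first pooled run held only 6 of them, the 3 pairs and the 3 relations with the erythroid mean, and was replaced by the run of 12 given here. The relation of *CD34* with the erythroid mean then had *r* = 0.80 over 16 livers (permutation *P* = 0.000200, adjusted 0.00240) and rho = 0.83 (*P* = 1e-04, adjusted 0.00120). Over 15 livers without HOX animal 1 it had *r* = 0.83 (adjusted *P* = 0.00408) and rho = 0.79 (adjusted 0.0170). Without the 2 livers with the most extreme *CD34*, CON animal 5 and HOX animal 7, *r* was 0.69 over 14. Its direction was the same in both groups and in each of these calculations. Many single genes also followed *CD34* closely. Over all genes tested, rho with *CD34* over 16 livers, centred within group, had a 95th percentile of 0.64. A gene with rho = 0.82, *FADS3*, ranked 97. Of the 3 pairs, *CD163* with *TGFBI* had *r* = 0.81 over 16 livers (permutation *P* = 0.0458, adjusted 0.110). Over 15 livers without HOX animal 1 the *r* of that pair was 0.13 (adjusted *P* = 0.906). *CD34* had *r* = 0.18 with *CD163* and 0.12 with *TGFBI* over 16 livers (adjusted *P* = 0.562 and 0.650). Over 15 livers these were 0.0913 and −0.0549 (adjusted *P* = 0.906 and 0.915).

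**Figure D2:**
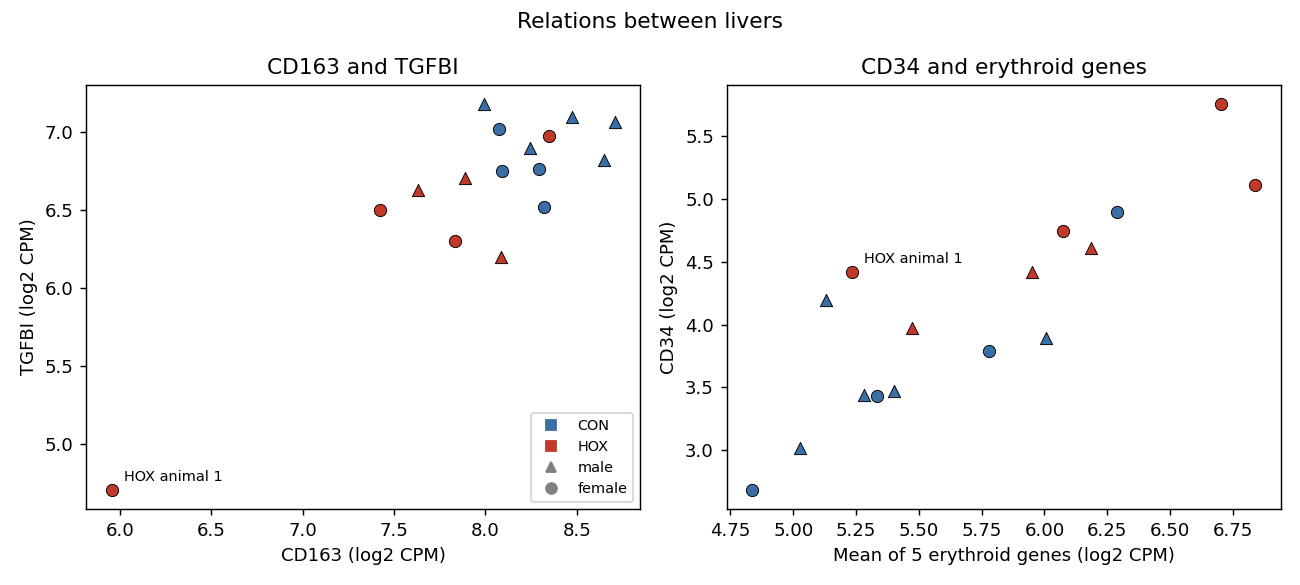
Log2 CPM of TGFBI against CD163 (left) and of CD34 against the mean of 5 erythroid genes (right) in 16 livers, blue for CON, red for HOX, triangles for males and circles for females. HOX animal 1 lies far below all other livers on the left, and on the right livers with a higher erythroid mean tend to have more CD34 in both groups.

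*TGFBI* tended to be higher in livers with higher expression of hepatocyte genes. Of 33 hepatocyte genes 20 were found and tested, with 1 higher and 19 lower in HOX and a median log2 fold change of −0.51 (0.01 over all genes). They too were found only through the study's table of genes that differ in this contrast, so their distance from the median of all genes is tied to that choice and nothing is read from it. Their summed level was 28529 ± 3195 CPM in CON and 20643 ± 3163 in HOX. *FGG*, a fibrinogen chain gene, was the most abundant (8258 ± 1401 and 6653 ± 676). In CON livers *r* was 0.70 (exact permutation *P* = 0.0359, adjusted 0.108) and rho 0.78 (*P* = 0.0172, adjusted 0.123), and *r* was 0.66 without the 2 livers farthest out. In HOX livers *r* was 0.89 (exact permutation *P* = 0.0268, adjusted 0.0964) and rho 0.71 (*P* = 0.0881, adjusted 0.219), but *r* was 0.45 and rho 0.54 without animal 1. Centred within sex the relation had *r* = 0.52 in CON (exact permutation *P* = 0.181, adjusted 0.408) and 0.91 in HOX (exact permutation *P* = 0.0278, adjusted 0.164). Pooled over 16 livers it had *r* = 0.85 (permutation *P* = 0.00301, adjusted 0.0181) and rho = 0.76 (adjusted 0.0124). Over 15 livers without HOX animal 1 it had *r* = 0.58 (adjusted *P* = 0.197) and rho = 0.66 (adjusted 0.0744), so the pooled relation passed only with that liver.

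*CD163* also had a positive *r* with the hepatocyte mean in HOX livers, 0.84 (exact permutation *P* = 0.0542, adjusted 0.122) with rho = 0.75 (*P* = 0.0663, adjusted 0.199), while without animal 1 *r* was 0.14 and rho 0.60 (exact permutation *P* = 0.826 and 0.242). With the erythroid mean in HOX livers *CD163* had *r* = 0.72 (exact permutation *P* = 0.0462, adjusted 0.119) and rho = 0.68 (*P* = 0.110, adjusted 0.219), while without animal 1 *r* was 0.45 and rho 0.49. Centred within sex that *r* was 0.91 (exact permutation *P* = 0.0347, adjusted 0.164) and rho 0.83. In CON livers the *r* of *CD163* was 0.33 with the hepatocyte mean and −0.11 with the erythroid mean (exact permutation *P* = 0.398 and 0.776, adjusted 0.652 and 0.883). These were 0.0656 and −0.0149 centred within sex, and −0.14 and −0.00658 without the 2 livers farthest out. Pooled over 16 livers *CD163* had *r* = 0.74 with the hepatocyte mean (permutation *P* = 0.0275, adjusted 0.0826) and rho = 0.48 (adjusted 0.234), and over 15 livers without HOX animal 1 *r* = 0.24 (adjusted *P* = 0.819) and rho = 0.38 (adjusted 0.530). *TGFBI* with the erythroid mean had *r* = 0.59 in HOX livers (exact permutation *P* = 0.161, adjusted 0.289) with rho = 0.32, while without animal 1 *r* was 6.87e-05 and rho −0.0857. In CON livers *r* was −0.00288 (exact permutation *P* = 0.994, adjusted 0.994). *CD34* with the hepatocyte mean had *r* = −0.19 in HOX livers (exact permutation *P* = 0.654, adjusted 0.841) and −0.0521 in CON livers (*P* = 0.901, adjusted 0.954), and without animal 1 the HOX value was −0.85 (exact permutation *P* = 0.0653, adjusted 0.196, from 0.196 to 0.867 over the alternatives), with rho = −0.49. The sign of that relation in HOX did not hold, since *r* was 0.21 with values centred within sex.

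*CD163* tended to be lower in HOX livers with more reads. Its *r* with the log2 total count was −0.84 (exact permutation *P* = 0.00258, adjusted 0.0464), with rho = −0.82 (*P* = 0.0341, adjusted 0.123), and it was the 1 relation of 18 that passed. Among the 6 HOX livers without animal 1 *r* was −0.83 (exact permutation *P* = 0.0389) and rho −0.71 (*P* = 0.136), with an adjusted *P* of 0.140 for *r*. Centred within sex *r* was −0.82 (exact permutation *P* = 0.0139, adjusted 0.164). Over the alternatives tried *r* ranged from −0.84 to −0.82 and the adjusted *P* from 0.0464 to 0.164. Within sex the smallest *P* possible for *r* is 0.00694, too high for 1 relation of 18 to pass alone. The call lost within sex therefore does not show a weaker relation. With 6 livers the smallest *P* possible is 0.00139, which could have passed, so that limit did not decide the call there. In CON livers *r* was 0.10 (exact permutation *P* = 0.785, adjusted 0.883) and rho 0.0333. The sign in CON did not hold, since *r* was −0.24 centred within sex and −0.37 without the 2 livers farthest out (exact permutation *P* = 0.518 and 0.401). Pooled over 16 livers *r* was −0.66 (permutation *P* = 0.0114, adjusted 0.0456) and rho −0.50 (adjusted 0.234), and over 15 without HOX animal 1 they were −0.42 and −0.39 (adjusted *P* = 0.501 and 0.530). *TGFBI* had the same sign as *CD163* in HOX livers, with *r* = −0.63 with the total count (exact permutation *P* = 0.0792, adjusted 0.158) and rho = −0.68 (*P* = 0.110, adjusted 0.219), while without animal 1 *r* was −0.0781 and rho −0.49 (exact permutation *P* = 0.893 and 0.356). In CON livers *TGFBI* had *r* = 0.73 (exact permutation *P* = 0.0264, adjusted 0.0964) and rho = 0.73 (*P* = 0.0311, adjusted 0.123), and *r* was 0.48 without the 2 livers farthest out. Centred within sex, *r* of *TGFBI* with the total count was 0.57 in CON (exact permutation *P* = 0.207, adjusted 0.414) and −0.60 in HOX (exact permutation *P* = 0.278, adjusted 0.455). *CD34* with the total count had *r* = −0.26 in CON and −0.28 in HOX livers (exact permutation *P* = 0.497 and 0.540, adjusted 0.746 and 0.747). In HOX that *r* was −0.17 without animal 1 and −0.61 centred within sex. Pooled over 16 livers it was −0.25 (adjusted *P* = 0.472). The part of depth in these values was not tested.

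Other genes of the same cell types were described through lists, whose members could be found only where the study's gene table gave their symbol, so their direction is not independent evidence. Over all genes tested, 4392 were higher and 4188 lower in HOX, with a median log2 fold change of 0.01. Of 28 macrophage genes only *CD163* itself was found, so other macrophage markers were not analysed here. Of 22 leukocyte genes 3 were found, 1 higher (*PIK3R5*, 0.81) and 2 lower (*RASAL3*, −0.64, and *DENND1C*, −0.25), with a median of −0.25. Of 30 endothelial and progenitor genes 2 were found, both higher in HOX, *CD34* and the histone deacetylase gene *HDAC7*, at 59.3 ± 9.30 CPM in CON and 76.7 ± 10.3 in HOX. These values are a description.

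The matrix list was mixed. Of its 49 genes 15 were found and 14 tested, 6 higher and 8 lower in HOX, with a median of −0.37. *TGFBI* was among the lower genes together with *COL26A1*, a collagen gene, at 28.1 ± 8.66 CPM in CON and 15.1 ± 8.09 in HOX, and *LGALS1*, the gene of galectin-1, at 37.1 ± 17.5 and 20.5 ± 8.58. The higher genes included *THBS4*, the gene of a thrombospondin, at 39.6 ± 11.1 and 88.9 ± 48.5, and *ASPN*, the gene of the small proteoglycan asporin, at 58.2 ± 9.64 and 75.9 ± 10.5. HOX animal 1 had the highest *THBS4* of all HOX livers (161) and the lowest *COL26A1* (3.35), so it was not low in every matrix gene. The summed level of the tested matrix genes was 8948 ± 1578 CPM in CON and 6568 ± 1638 in HOX (7004 ± 1275 without animal 1), and it was mostly *VTN*, which encodes vitronectin and is also in the hepatocyte list, at 8016 ± 1527 and 5573 ± 1595.

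Genes with the most similar pattern were ranked by Spearman's rho of log2 CPM, centred within CON and within HOX, over 16 livers, and are given as a description. Names came from 429 tested genes with a symbol, and ranks are among all 8579 other genes. Among the nearest 5 for *CD163* were *CYB5R3* (rho = 0.84, rank 7), *SH3BGRL3* (0.78), *COL26A1* (0.77) and *S100A16* (0.76), against a median rho of 0.0206 over all genes. *TGFBI* ranked 1519 for *CD163*, with rho = 0.32. For *CD34* the nearest were *ARHGAP23* (0.85, rank 45), *TONSL* (0.85), *TSPO* (0.83), the glycine transporter gene *SLC6A9* (0.82) and *FADS3* (0.82). *TMEM242* (−0.74), *AGPAT1* (−0.71) and *BHLHE40* (−0.67) were the most opposite to *CD34*. For *TGFBI* the nearest were *PBXIP1* (0.78, rank 32), *CUX2* (0.78), *EAF2* (0.76), *PEMT* (0.75), which makes phosphatidylcholine, and *NOTUM* (0.73). Most opposite to *TGFBI* were *STRAP* (−0.81), *GNPNAT1* (−0.75) and *URB2* (−0.72), and to *CD163* *ZNF335* (−0.67), *DUSP12* (−0.64) and *DNAJC22* (−0.60). Without HOX animal 1 the nearest 5 kept 3 of their genes for *CD163*, 2 for *CD34* and 3 for *TGFBI*. With Pearson's *r* in place of rho they kept 2, 1 and 4. The rho values of the same genes without HOX animal 1 were 0.64 to 0.77 near *CD163*, 0.80 to 0.87 near *CD34*, and 0.63 to 0.78 near *TGFBI* except for *NOTUM* (0.41). Among the opposite genes *STRAP* had −0.53 and *DUSP12* −0.46 without that liver, and the others from −0.73 to −0.54. *TGFBI* with *CD163* had 0.0679.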

How the data were processed

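Counts of reads per gene, whole numbers without normalization, were deposited for 16 livers. The authors mapped paired reads of polyA-selected RNA with STAR 2.7.10b, as the submitters' processing notes give it, to the sheep genome ARS-UI_Ramb_v1.0 with its Ensembl annotation. How reads were assigned to genes, and whether strand was used, is not given in the sources used here, so reads of overlapping genes or near-identical copies are uncertain. The table lists identifiers. Symbols came from the study's gene table (438 of 487 identifiers), some of them assigned by similarity to human genes, and the other columns of that table, which hold the authors' own comparisons, were not used.

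The 8580 genes reaching 250 reads in 8 or more livers (97.7% of reads) were tested with edgeR 4.0.16 in R 4.3.3, with TMM factors and Benjamini-Hochberg adjustment over all genes tested. The study names DESeq2, which was run as an alternative (1.42.0), as was limma-voom with sample quality weights (limma 3.58.1). Log2 CPM used a prior count of 2. Relations between livers were tested in Python 3.11.15 by two-sided exact permutation, or by 100000 permutations within groups where pooled, and adjusted within each family (6, 18 and 12 relations). The smallest chi-square per degree of freedom between any pair of livers was 40.9, so no library was a duplicate of another. Scripts were tested on simulated data. Genes were named by rule, as the 3 genes, the members of the cell type lists that were found, and the 5 most similar and 3 most opposite genes. A similar gene and a short gene list are not reported here. The 3 genes and the lists were chosen with earlier results of these data known.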

Additional observations from a re-analysis of the deposited data

Results flagged for a closer look

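The log2 CPM of the 3 genes, of the other tested genes of the cell type lists and of the list means, 58 in all, was examined within CON and within HOX. Of these 116 groups of livers 12 held a liver far from the others, where chance gives about 1 in 20 groups. Genes of a list can move together, so the groups are not independent of each other. HOX animal 1 accounted for 8 of the 12. Its *CD163* was the lowest of the HOX livers, at a log2 CPM of 5.95 against 7.42 to 8.35 in the others, a gap of 0.614 of the group's range. Its *TGFBI* was also lowest, at 4.71 against 6.20 to 6.97, a gap of 0.659 of the range. Its *S100A10* was the highest, at 5.82 against 4.78 to 5.14, a gap of 0.647. Its *CDAN1*, from the erythroid list, was the lowest, at 4.03 against 4.90 to 5.19, a gap of 0.748. In the hepatocyte list it was the lowest for *C9*, a complement gene (8.31 against 9.62 to 9.94, a gap of 0.802), and for *LECT2* (7.35 against 8.83 to 9.40, a gap of 0.722). Among interferon-stimulated genes it was the highest for *MX1* (6.42 against 4.13 to 4.94, a gap of 0.646) and *UBE2L6* (6.05 against 4.23 to 5.00, a gap of 0.573). *SPON2* was highest in CON animal 6, at 8.27 against 7.35 to 7.81, a gap of 0.498. *CHRD* was highest in CON animal 4, at 7.77 against 7.00 to 7.33, a gap of 0.573. *F7*, a coagulation factor gene, was lowest in CON animal 5, at 7.77 against 8.33 to 8.83, a gap of 0.525, and *C4B*, a complement gene, in CON animal 6, at 6.26 against 7.44 to 8.42, a gap of 0.548.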

How the results depend on the processing

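The HOX differences of the 3 genes kept their direction under all 26 alternatives run, from −0.72 to −0.43 on the log2 scale for *CD163*, from −0.60 to −0.33 for *TGFBI* and from 0.71 to 1.28 for *CD34*. The number of genes called over the whole table did not hold. edgeR called 5, but 1 without the read minimum, DESeq2 237, and limma-voom with sample quality weights, a change of both tool and weights, 146. Leaving out each liver in turn gave from 1 to 47 calls, with 12 without HOX animal 1 and 47 without HOX animal 5. Chosen after seeing the data, DESeq2 without HOX animal 1 called 523, and edgeR called 2 in male and 0 in female fetuses alone (605 and 451 at an unadjusted *P* under 0.05). For sex, 2 calls became 7 with DESeq2, 9 with DESeq2 without HOX animal 1, and 1 with the read minimum in 9 livers. For the interaction, 0 became 6 with DESeq2, with or without that liver. The number of the 18 relations with markers and depth that passed was 1, and 0 without HOX animal 1 or with values centred within sex, but the *r* of the relation that passed, *CD163* with the total count in HOX, was −0.84, −0.83 and −0.82. The smallest *P* an exact permutation of *r* can reach is 0.00139 with 6 livers and 0.00694 with 7 permuted within sex. The value within sex is too high for 1 relation of 18 to pass alone, so the call lost there does not show a weaker relation. With 6 livers the relation could have passed, so that limit did not decide the call without HOX animal 1. Pooled after seeing the data, 3 of 9 such relations passed over 16 livers and 1 over 15. The cause of these changes was not tested.

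CON and HOX animals share numbers, but they were singleton fetuses of different ewes, which the study assigned to the groups at random. The correlation of same-numbered livers ranged from −0.314 to 0.153, and only HOX animal 6 correlated best with its own number. These correlations cannot show whether same-numbered animals shared a date or batch. With the number as a replicate block, edgeR called 0 genes (756 at an unadjusted *P* under 0.05).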

Other observations

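Within each liver, *CD34* reads were 4.33 ± 2.25% of *CD163* reads in CON (1.98 to 9.48%) and 15.8 ± 9.92% in HOX (6.58 to 34.4%), a description of genes chosen on this contrast. HOX animal 1 had the highest value, and without it the HOX mean was 12.7 ± 6.12%. Of 23 interferon-stimulated genes 8 were found and 6 tested, all 6 with a lower mean in HOX (median log2 fold change −0.33, and 0.01 over all genes). They were found only through the study's table of genes that differ in this contrast, so nothing is read from that direction. HOX animal 1 was the only HOX liver in which the mean log2 CPM of these interferon-stimulated genes (5.63) was above the CON mean (5.35 ± 0.226), the other HOX livers lying from 4.66 to 5.10. Its *MX1*, an interferon-induced GTPase gene, stood at 85.8 CPM against 24.9 ± 4.48 in the other 6 and 37.6 ± 15.1 in CON. Its *UBE2L6* was 66.0 CPM against 34.6 ± 4.78 in CON. The rest of the 6 genes were below their CON means in that liver. These were *EPSTI1* (17.4 against 19.1), *RTP4* (14.3 against 15.0), *LGALS3BP* (103 against 136) and *SHFL* (99.8 against 105). The 3 leukocyte genes had a summed level of 91.1 ± 14.4 CPM in CON and 84.4 ± 20.1 in HOX, and 108 in HOX animal 1. Most of that liver's sum was *DENND1C* (82.6 CPM), while *PIK3R5* was 14.4 in it and 21.5 ± 11.9 in the other 6 HOX livers, and *RASAL3* 10.6 and 9.35 ± 1.89.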
